A study of Mus musculus with 30 samples.

Results

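The cultures described here are activated mouse B cells in which Irf4 had been switched on strongly, set against wild-type B cells at the same time. They were picked by their titles, as the high doxycycline (DOX) cultures and the wild-type cultures of day 3. They make up 6 of the 30 arrays of the series, 3 in each group. All cells were splenic B cells of the strain labelled C57BL/6, B1-8i, and all were stimulated for 3 days with CD40L and the cytokines IL-2, IL-4 plus IL-5. The high DOX cultures carried the genotype Irf4-/- with an inducible Irf4 gene and received 100 ng/mL DOX. The wild-type cultures were Irf4+/+ and received no DOX. As the labels do not name the promoter of the inducible gene, and no wild-type culture with DOX was made, the drug, the inducible gene, the Irf4-/- background and the amount of Irf4 cannot be told apart in this comparison. To tell which differences were already there without Irf4, the 3 zero DOX cultures of the same genotype and day are used as well, and the 3 low DOX cultures (16 ng/mL) give a middle dose. Each replicate was the B cells of 1 mouse, per the series text, which does not say whether a mouse supplied several groups or days, with 2 of each 3 run in parallel and 1 at another time. The comparison asks which genes return to the wild-type level when Irf4 is given back at the higher dose, which the series text says was set to give many plasma cells, which pass beyond it, and which do not come back.

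IRF4 is a transcription factor of the interferon regulatory factor family, made in B cells after signals through the antigen receptor, CD40 or Toll-like receptors. It binds DNA together with ETS factors such as PU.1 and Spi-B, together with the AP-1 factor BATF, or alone at interferon response elements. In B cells a low amount is known for supporting the germinal centre programme, and a high amount for turning that programme off and driving the change into plasma cells through Blimp-1, the product of Prdm1.

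Values are log2(intensity + 16) for levels and log2 differences for comparisons, with the standard error (SE) of limma's fit. A gene is called if its Benjamini-Hochberg adjusted p in limma is below 0.05 over the 12183 genes tested. Because an exact permutation test of 3 arrays against 3 cannot go below p = 0.1, calls on single genes come from limma, whose spread is shared by all 30 arrays. A gene is given by its probe set of highest mean. Of 83 called genes named by rule with another tested set, 54 had every other set called the same way, 29 had 1 or more that were not, and 1 had a set called the opposite way. These are bulk measurements, in which fewer cells of a type and less RNA per cell cannot be told apart.

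The 6 arrays were alike in quality. Median intensities lay between 189 and 194 in the high DOX group and between 188 and 192 in wild type, and correlations between replicates lay between 0.9903 and 0.9946 and between 0.9951 and 0.9975. The groups differed in sex: Xist and the Y-linked Eif2s3y showed 2 males and 1 female (replicate 3) among the high DOX mice, and 3 females among the wild-type mice. For the 5008 genes called between the groups, the female high DOX array lay on the same side of the wild-type mean in 5008 and outside the wild-type range in 4914, although it is 1 of the arrays behind the call. With a term for sex in the fit, 4876 genes were called, 4390 of them shared. As all wild-type arrays were female, that term rests on the Irf4-/- arrays alone. The only female of the high DOX group was replicate 3, so the term cannot tell sex from any other trait of that replicate. On 2 day 1 arrays, which enter only the shared spread, the Irf4 probe set that follows DOX went against the label; without them 4992 genes were called.

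For Irf4 there were 2 probe sets. The set 1421174_at followed DOX. It stood at 13.66, 13.56 and 13.53 in the high DOX cultures, at 13.09, 12.94 and 12.99 with low DOX, at 7.68, 7.34 and 7.49 with zero DOX, and at 7.35, 7.39 and 7.23 in wild type. Wild-type cells, which carry both natural copies of Irf4, therefore read as low as cells without it, so that this set reports the inducible gene and not the natural one. The other set, 1421173_at, averaged 11.19 ± 0.17 (SD, n = 3) in high DOX, 10.82 ± 0.052 in wild type and 11.10 ± 0.29 in the zero DOX cultures. It read as high without Irf4 as with it. The high DOX cultures exceeded wild type by 6.26 (SE 0.623, adjusted p = 2.74e-08) on the first set and by 0.37 (SE 0.129, adjusted p = 0.0244) on the second, and the second call was lost with a sex term (difference 0.192, adjusted p = 0.0967). Neither set compares the amount of Irf4 in high DOX cultures with that in wild type. The term high Irf4 thus rests on the labels and the dose.

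Of the 12183 genes, 5008 (41.1%) differed between high DOX and wild type, 2695 (22.1%) higher and 2313 (19.0%) lower. Most differences were small: 326 (2.68%) were called at 2-fold or more, 180 of them higher (1.48%) and 146 lower (1.20%). The 3 high DOX arrays lay wholly above or below the 3 wild-type arrays in 6787 genes (55.7%). The median difference over all genes was 0.0113. With zero DOX, 4247 genes (34.9%) differed from the same wild-type arrays, 2318 higher (19.0%) and 1929 lower (15.8%). With low DOX 18.9% of genes were higher and 15.3% lower than wild type. Between high and zero DOX 5923 genes (48.6%) differed, and for 4813 (39.5%) the difference between high DOX and wild type was not the same at day 3 as at day 1.

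The 4247 genes that differed from wild type with zero DOX fell into several fates under high DOX. These sort out comparisons that share the wild-type and zero DOX arrays. In 1521 (35.8%) the gene moved back and was no longer called against wild type; this group is named restored (12.5% of all genes tested), which does not mean that the levels were equal. In 812 (19.1%) it passed to the opposite side of wild type, named overshoot (6.67% of all genes tested), with 452 ending above and 360 below. In 1412 genes, named not restored (11.6% of all genes tested), it remained called on the same side of wild type, 760 higher and 652 lower. Among these, 217 had moved part of the way back, 861 had not moved by the test, and 334 had moved further away. Of the 4247 genes these are 5.11%, 20.3% and 7.86%, and of all genes tested 1.78%, 7.07% and 2.74%. With the replicate number as a block, which pairs high with zero DOX arrays, these counts were 286, 975 and 437, and 50 of the 861 genes were called between high and zero DOX. The remaining 502 met none of these rules. A further 2229 genes were not called with zero DOX and differed with high DOX from both wild type and zero DOX in one direction (gained with DOX, 18.3%), 1190 higher and 1039 lower.

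The fates of the genes with the largest starting differences were as follows. Of 114 genes (0.936%) at least 2-fold lower than wild type with zero DOX, 23 were restored and 33 overshot, while 23 were partly restored, 22 had not moved and 12 had moved further down. Of 220 genes (1.81%) at least 2-fold higher, 117 were restored and 23 overshot, while 48 were partly restored, 22 had not moved and 7 had moved further up. These counts are a description and the difference between the directions was not tested.

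**Figure D1:**
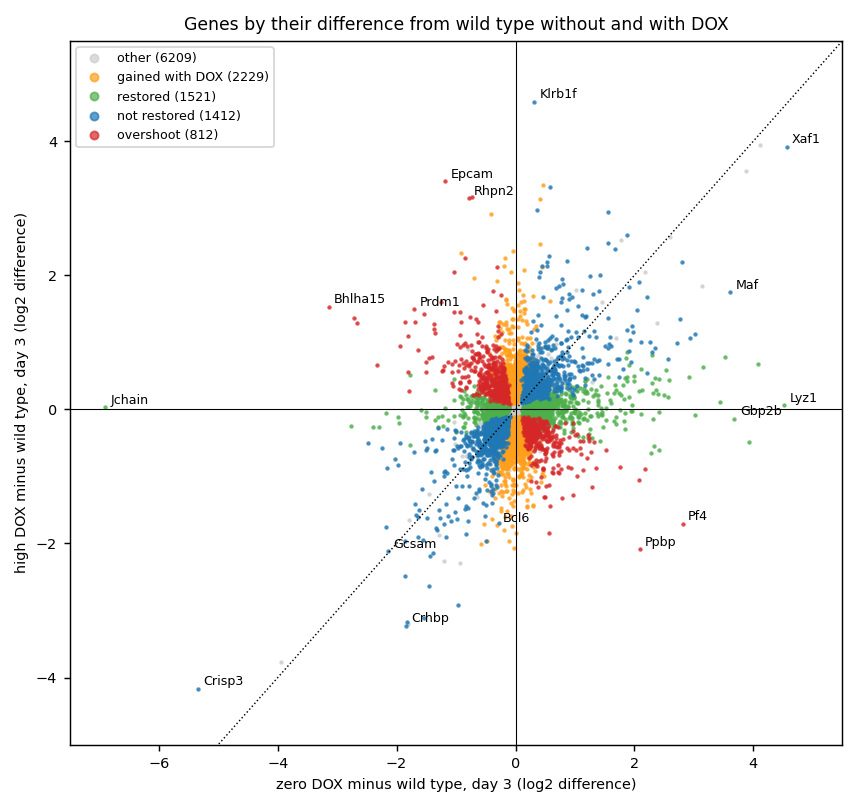
Each point is 1 of 12183 genes, with its log2 difference from wild type at day 3 with zero DOX on the horizontal axis and with high DOX on the vertical axis, coloured by its fate; both axes share the 3 wild-type arrays, and the dotted line marks equal differences. Jchain lies far to the left at a height near 0 (restored), Epcam and Bhlha15 in the upper left (overshoot), Crisp3 and Xaf1 near the dotted line (not restored), and the grey points farthest along that line include Xist and Eif2s3y, which follow the sex of the mice.

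Among the 10 genes standing highest above wild type, 7 had no wild-type array above the table's median intensity, and 6 had none in the zero DOX group either. These 6 were Klrb1f, Egln3, Mpzl2, Rhpn2, Fnbp1l and Nckap1, for which no fold is given. Klrb1f, which encodes a lectin-like receptor of the NK receptor family, stood at 11.76, 11.58 and 11.59 in high DOX and at 7.00, 6.92 and 7.25 in wild type, a difference of 4.59 (SE 0.115, adjusted p = 9.15e-19). Its zero DOX values of 7.05, 7.57 and 7.48 lay near wild type, so almost all of the difference came with DOX. Epcam, an epithelial cell adhesion molecule also found on plasma cells, stood at 12.36, 12.15 and 12.25 against 8.82, 8.86 and 8.88 in wild type and 7.62, 7.55 and 7.83 with zero DOX. It was thus below wild type without Irf4 and 3.40 above it (10.6-fold, SE 0.198, adjusted p = 3.22e-12) with high DOX. Egln3, an oxygen-sensing prolyl hydroxylase, differed by 3.35 (SE 0.258), Phlda1 by 3.32 (SE 0.107), the adhesion molecule Mpzl2 by 3.17 (SE 0.175) and Rhpn2 by 3.15 (SE 0.0979). Fnbp1l differed by 3.13, Nckap1, a subunit of the WAVE complex, by 2.98 and Osbpl3 by 2.95. Further down the order stood, among others, the actin cross-linker gene Actn1 (2.40), Vcl, the gene of vinculin (2.26), and Pls1 (2.12). Their fates differed. Actn1 was already 1.67 above wild type with zero DOX and had not moved by the test, while Vcl was gained with DOX and Pls1 overshot. A second probe set of Actn1 differed by only 0.119 (adjusted p = 0.31), and those of Epcam and Rhpn2 by 0.841 and 1.959, both called. For Mpzl2 the call was lost when genes of low intensity were kept, as another probe set then stood for the gene.

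The genes standing farthest below wild type were led by Crisp3, a secreted cysteine-rich protein gene, at 5.70, 5.66 and 6.71 in high DOX and 10.12, 10.69 and 9.77 in wild type. Its zero DOX values of 4.70, 4.51 and 5.35 were lower still, so that it was partly restored, with a difference from wild type of -4.17 (SE 0.387, adjusted p = 9.54e-09). Already at day 0 Crisp3 averaged 5.796 in Irf4-/- cells without DOX and 10.103 in wild type. Crhbp, the corticotropin-releasing hormone binding protein, behaved differently. It stood at 9.49, 9.65 and 9.53 in wild type, at 8.13, 7.48 and 7.54 with zero DOX and at 6.02, 6.28 and 6.70 with high DOX, and so moved further down when Irf4 was switched on (difference from wild type -3.22, SE 0.209). The same order of wild type, zero DOX, high DOX was called for Parm1 (-3.18), Hemgn (-3.12), the calcium channel gene Ryr2 (-2.92), Havcr1 (-2.64), which encodes the surface receptor TIM-1, Tmem108 (-2.19) and the transcription factor gene Zfp521 (-2.15). A second probe set of Tmem108 did not differ (-0.047, adjusted p = 0.768). For Map7 (-2.49), a microtubule binding protein gene, the fall from zero to high DOX was not called, and its zero DOX values of 9.63, 7.48 and 7.72 were wide apart. Rgs18 was lower (-2.30, SE 0.586, adjusted p = 0.00272), with high DOX values of 5.34, 5.38 and 6.58. In all 10 of these genes except Map7 the female array, replicate 3, was the highest of the 3 high DOX arrays, that is, nearest to wild type. Among the 10 genes highest above wild type, replicate 3 was likewise nearest for Egln3, Mpzl2, Rhpn2, Fnbp1l, Nckap1 and Osbpl3. It was not the nearest for Klrb1f, Xaf1, Epcam and Phlda1. In 5 of the 10, namely Crisp3, Crhbp, Rgs18, Tmem108 and Zfp521, no high DOX array was above the table's median. For Crisp3 and Zfp521 no zero DOX array was above it either, and for Crhbp and Rgs18 only 1 was. A movement between zero and high DOX is hard to see there, so the fates of these genes are less sure.

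**Figure D2:**
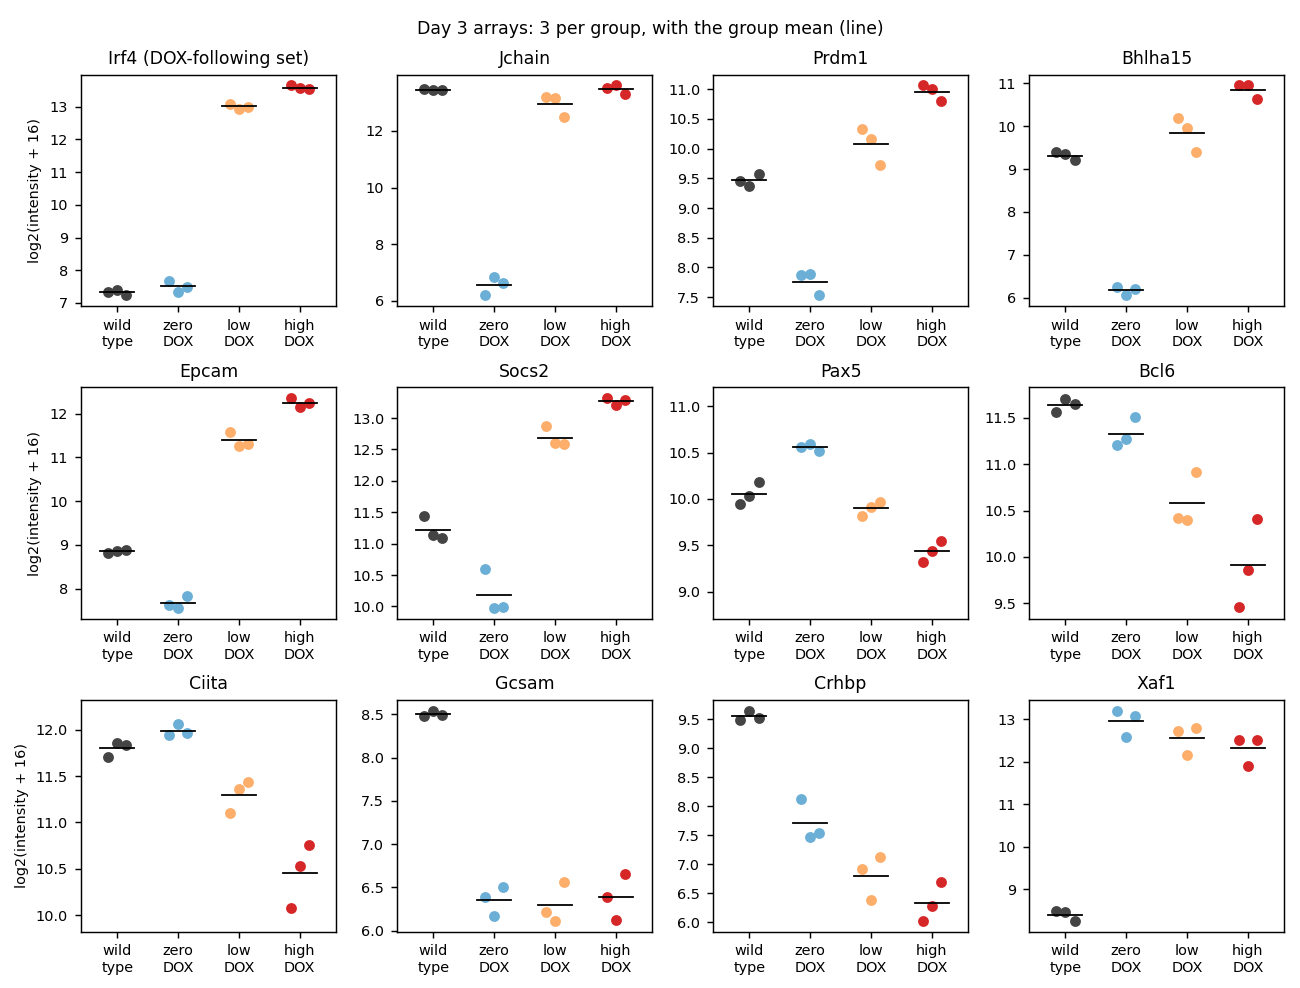
Levels of 12 genes as log2(intensity + 16) on the vertical axis, with each of the 3 arrays of wild type and of the zero, low and high DOX groups at day 3 as a point and the group mean as a line; each panel has its own axis. Prdm1, Bhlha15, Epcam and Socs2 lie below wild type with zero DOX and above it with high DOX, Bcl6 and Ciita fall with dose below wild type, Gcsam stays low at every dose and Xaf1 stays high.

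The plasma cell programme passed beyond wild type. List counts here and below are read against the shares of all genes, 22.1% higher and 19.0% lower with high DOX. These shares were 19.0% and 15.8% with zero DOX, and 18.9% and 15.3% with low DOX. Among 23 tested plasma cell genes, 16 were higher than wild type and 1 was lower, with a median difference of 0.574. With zero DOX none was higher and 20 were lower, with a median of -0.954, and with low DOX 7 were higher and 3 lower, with a median of 0.12. By fate, 14 overshot and 5 were restored. Prdm1, which encodes Blimp-1, stood at 11.07, 11.01 and 10.80 in high DOX, at 9.46, 9.37 and 9.57 in wild type and at 7.87, 7.89 and 7.53 with zero DOX. All 3 groups were apart, and the high DOX level exceeded wild type by 1.5 (2.82-fold, SE 0.199, adjusted p = 1.75e-06). Bhlha15, the gene of MIST1, a factor of secretory cells, exceeded wild type by 1.53 (SE 0.158), against a difference of -3.15 with zero DOX; a second probe set of Bhlha15 did not differ (-0.006). Tent5c, an RNA-modifying enzyme gene, exceeded it by 1.45, Slpi, a protease inhibitor, by 1.37, the endoplasmic reticulum protein Fkbp11 by 1.31, the elongation factor Ell2 by 0.65 and the BCMA gene Tnfrsf17 by 0.55. Sdc1, whose product CD138 marks plasma cells, exceeded it by 0.66 (SE 0.153), with 1 of its 3 other probe sets called the same way. Xbp1, the master gene of the secretory apparatus, exceeded wild type by only 0.22 (SE 0.079, adjusted p = 0.0286), and lost the call in 4 of the fits that left out 1 array.

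Other plasma cell genes stopped at wild type. Jchain, the joining chain of IgM and IgA, stood at 13.53, 13.62 and 13.31 in high DOX and at 13.47, 13.43 and 13.46 in wild type, against 6.19, 6.83 and 6.64 with zero DOX. Its difference from wild type was 0.03 (SE 0.312, adjusted p = 0.946). Eaf2 stood at 12.97, 12.96 and 13.18 in high DOX and at 13.12, 13.02 and 13.16 in wild type, a difference of -0.06. For both genes the arrays of the groups overlapped. Mzb1 (0.13), Slamf7 (-0.11) and Trp53inp1 (0.06) were likewise restored. The member that was lower was Glipr1 (-1.40, SE 0.138), which moved further down with DOX.

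The secretory machinery stood above wild type as well. Of 30 endoplasmic reticulum chaperone and degradation genes, 23 were higher than wild type and 1 was lower (median 0.436), against none higher and 20 lower with zero DOX (median -0.343). By fate, 16 overshot and 8 were gained with DOX. The oxidase Ero1a, which reoxidises protein disulphide isomerase, stood at 11.48, 11.50 and 10.80 in high DOX, at 9.96, 9.78 and 10.21 in wild type and at 9.98, 9.83 and 9.51 with zero DOX, a difference from wild type of 1.28 (SE 0.165). Edem2 (1.00), which helps to pick misfolded glycoproteins for degradation, Creld2 (0.83) and the chaperone cofactor Sdf2l1 (0.79) overshot. The exception was Ero1b (-0.19). Of 30 translocon and vesicle transport genes, 23 were higher and 1 was lower (median 0.391), and 15 overshot. The COPII coat gene Sec24d led with 1.30 (SE 0.145) over wild type against a difference of -1.86 with zero DOX. Its partner Sec23b (0.89) was the 1 called member that was above wild type with zero DOX too. Srprb, the signal recognition particle receptor subunit, differed by 0.87 and Lman1, a cargo receptor, by 0.73, though 1 of the 3 other Lman1 probe sets was lower (-0.504). In the amino acid supply and stress response list, 9 of 20 were higher and 1 was lower (median 0.201): the amino acid transporter gene Slc7a5 (0.83) and Sesn2 (0.69) overshot, whereas Cebpb (1.40) and Atf5 (0.62) were above wild type by similar amounts with zero DOX (1.11 and 0.64). Among 3 immunoglobulin constant genes tested, Ighg3 was higher, at 12.22, 12.33 and 12.01 against 10.41, 10.54 and 10.54 (difference 1.69, SE 0.264), and Igha was lower. Its set of highest mean differed by -0.22, a call that was lost with a sex term, and its 2 other sets by -1.678 and -1.559 (adjusted p = 2.24e-11 and 2.4e-10).

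**Figure D3:**
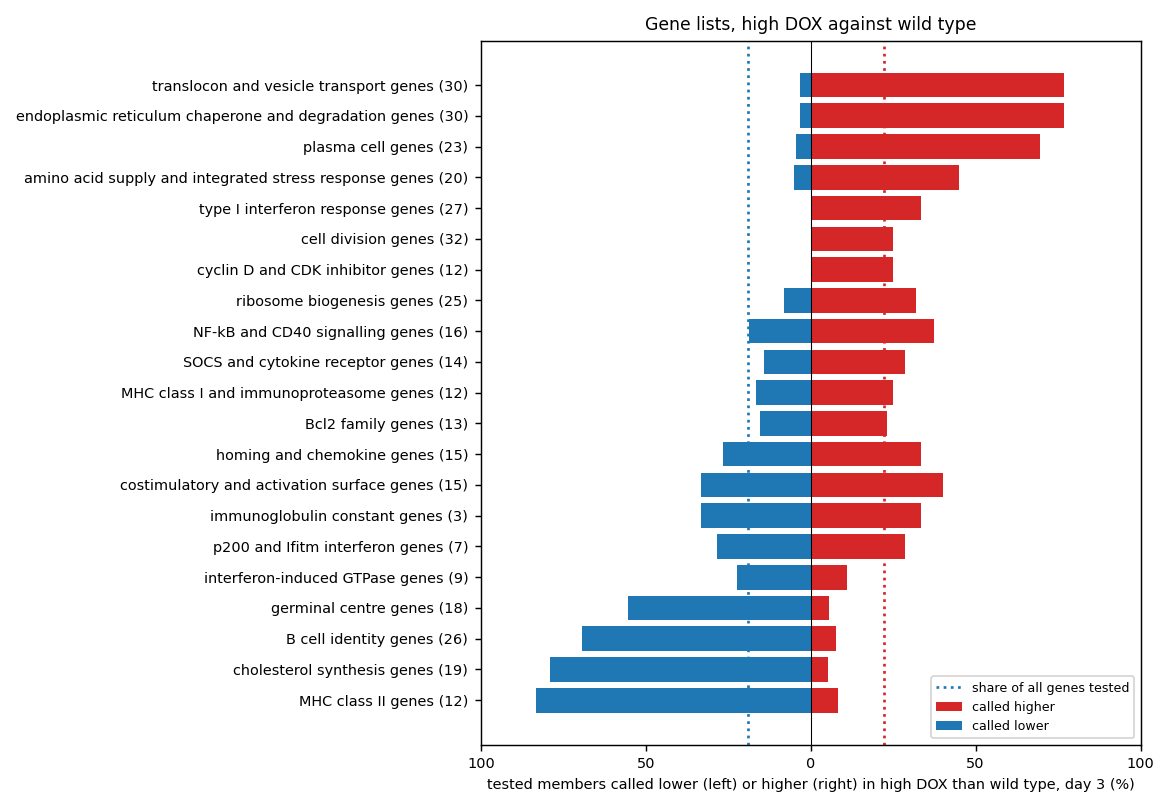
Share of the tested members of each gene list (number in brackets) that were called higher (to the right, red) or lower (to the left, blue) in high DOX than in wild type at day 3, in percent; dotted lines mark the shares among all genes tested, 22.1% and 19.0%. The secretory and plasma cell lists stand at the top and the MHC class II, cholesterol, B cell identity and germinal centre lists at the bottom.

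Among the other genes that overshot upwards were signalling genes. Socs2, a feedback inhibitor of cytokine receptors, stood at 13.32, 13.20 and 13.29 in high DOX, at 11.44, 11.14 and 11.09 in wild type and at 10.59, 9.97 and 9.99 with zero DOX, and exceeded wild type by 2.05 (SE 0.191, adjusted p = 1.07e-08). All 4 of its other probe sets were called the same way. The ETS family gene Etv5 exceeded wild type by 2.26, the interleukin-6 receptor gene Il6ra by 1.76 and the carboxypeptidase gene Cpd by 1.71. The other probe set of Il6ra did not differ (0.066), and the 2 others of Cpd differed by more, 3.063 and 4.449.

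The genes that overshot downwards, being above wild type without Irf4 and below it with high DOX, included B cell regulators. Pax5, the factor that holds B cell identity, stood at 9.32, 9.44 and 9.55 in high DOX, at 9.94, 10.03 and 10.18 in wild type and at 10.56, 10.59 and 10.52 with zero DOX. The difference from wild type was -0.61 (1.52-fold lower, SE 0.103, adjusted p = 3.83e-05), and the groups did not overlap. The ETS factors that pair with IRF4 followed the same order, with Spib at -0.40 (SE 0.0845) and Spi1, the gene of PU.1, at -0.47 (SE 0.0732). So did the related factors Irf8 (-0.40) and Irf5 (-0.40), and Klf2 (-0.32), whereas Irf2 was restored (-0.02) and Bach2 did not differ in either comparison (-0.10 and -0.11). Over the 26 tested B cell identity genes, 18 were lower and 2 higher than wild type (median -0.416), while with zero DOX 8 were higher and 4 lower (median 0.092). Of the 26, 6 overshot and 11 were gained with DOX. The low-affinity IgE receptor gene Fcer2a, CD23, was among the latter, at 11.30, 11.34 and 12.25 against 13.24, 13.31 and 13.24 (difference -1.63, SE 0.199). Cd72 overshot (-0.67), Id3 moved further down (-1.53), and the exceptions were the kinase gene Syk (0.72) and Ikzf3 (0.33), which were higher. The 8 largest downward overshoots were Ppbp (-2.09), Gcnt1 (-1.84), Pf4 (-1.71), Otud1 (-1.45), Serpinb9 (-1.33), Bin1 (-1.31), the Toll-like receptor gene Tlr1 (-1.31) and the kinase gene Lrrk2 (-1.27). Neither of the 2 other probe sets of Bin1 was called, and the other set of Gcnt1 differed by -0.333. Ppbp and Pf4 are platelet chemokine genes and are taken up with the markers of other cells. For both, the high DOX arrays and wild-type replicates 1 and 2 lay below the table's median intensity.

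Most class II antigen presentation genes stood below wild type with high DOX and were not called with zero DOX. Of 12 tested, 10 were lower and 1 was higher (median -0.457), against none lower and 1 higher with zero DOX (median 0.048), and 11 were gained with DOX. Ciita, the master coactivator of these genes, stood at 10.08, 10.53 and 10.76 in high DOX, at 11.71, 11.86 and 11.84 in wild type and at 11.95, 12.06 and 11.97 with zero DOX. Its difference from wild type was -1.35 (2.55-fold lower, SE 0.131, adjusted p = 1.9e-08). H2-Oa (-0.97) and H2-Ob (-0.88), which form the peptide-exchange modulator DO, and the promoter factor Rfx5 (-0.78) were next. The abundant chains changed less, with H2-Aa at -0.26, H2-Ab1 at -0.29 and Cd74 at -0.27. Class I and immunoproteasome genes were mixed, with 3 of 12 higher and 2 lower (median 0.041), and 41.7% called against 41.1% of all genes. Psmb10 was -0.41, Erap1 -0.20, and Psmb8 0.21, with its other probe set at -0.015.

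Of the germinal centre genes, 18 were tested, of which 10 were lower and 1 was higher (median -0.579), against 7 lower and 1 higher with zero DOX (median -0.34). Bcl6, the repressor that sets the germinal centre state, was gained with DOX. It stood at 9.46, 9.86 and 10.41 in high DOX, at 11.56, 11.70 and 11.65 in wild type and at 11.21, 11.27 and 11.51 with zero DOX, a difference from wild type of -1.73 (3.31-fold lower, SE 0.205, adjusted p = 3.48e-07), and its other probe set differed by -0.615. Fas, the death receptor carried by germinal centre cells, followed the same route, with 9.04, 9.37 and 9.11 against 10.70, 10.74 and 10.87 (difference -1.60, SE 0.127). Gcsam was not restored. It stood at 8.48, 8.54 and 8.49 in wild type, at 6.39, 6.17 and 6.50 with zero DOX and at 6.39, 6.12 and 6.65 with high DOX, so that its difference of -2.11 (SE 0.174) stood beside -2.15 without Irf4. All Gcsam values with zero and high DOX lay below the table's median intensity, where a movement between them is hard to see. Mybl1 (-1.75, against -2.17 with zero DOX) was partly restored, and Klhl6 (-1.0 against -0.81) had not moved.

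Genes gained with DOX in the upward direction spanned several roles. The thyroglobulin gene Tg stood at 10.76, 10.79 and 9.93 against 7.74, 7.62 and 7.38 (difference 2.91, SE 0.187). The imprinted zinc finger gene Plagl1 stood at 9.07, 8.88 and 6.87 against 5.89, 5.84 and 5.68 (difference 2.47, SE 0.467), and its female array lay far below the 2 male arrays. Rasd1 (2.36), Rgcc (2.33) and Hnrnpll (2.15), a splicing factor gene known for plasma cell transcripts, were also among the 8 largest. Tnfsf9, the ligand 4-1BBL, exceeded wild type by 2.05 (SE 0.122) and Cd70 by 1.04. Downward, the largest were Serpinb1a (-2.07), Rflnb (-2.01), the adaptor gene Stap1 (-1.97), Nlrc3 (-1.96), Sertad4 (-1.84), the sphingosine phosphate receptor gene S1pr3 (-1.80) and Marchf1 (-1.74), a ubiquitin ligase that acts on class II molecules. The other sets of Serpinb1a and Nlrc3 differed by only -0.318 and -0.334. Single homing and survival genes were also gained: Ccr6 was -1.44, S1pr1 -1.06 and Bcl2 -0.97 relative to wild type. Bcl2l1, the gene of Bcl-xL, was 0.87 higher on 1 probe set and not on the other (0.076, adjusted p = 0.536). Over the lists, read against 22.1% higher and 19.0% lower among all genes, 5 of 15 homing and chemokine genes were higher and 4 lower (median 0.245), 6 of 15 costimulatory genes were higher and 5 lower (median 0.119), with Slamf1 at -1.19 and Pdcd1lg2, which moved further down, at -1.22, and 3 of 13 Bcl2 family genes were higher and 2 lower (median 0.099), with 38.5% called against 41.1% of all genes.

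Type I interferon response genes were high without Irf4 and came back unevenly. With zero DOX 25 of 27 were higher than wild type and none lower (median 1.047), with low DOX 18 were higher and none lower (median 0.679), and with high DOX 9 were higher and none lower (median 0.146). By fate, 15 were restored and 9 were not. Xaf1, an apoptosis-related interferon gene, stood at 12.52, 11.90 and 12.52 in high DOX, at 8.48, 8.46 and 8.25 in wild type and at 13.20, 12.59 and 13.07 with zero DOX, and so stayed 3.92 above wild type (15.1-fold, SE 0.256, adjusted p = 2.68e-11). Already at day 0 Xaf1 averaged 11.268 in Irf4-/- cells without DOX and 7.675 in wild type. A second Xaf1 probe set pointed the other way without a call (-1.303, adjusted p = 0.0735). Ifit3 stood at 10.20, 10.58 and 9.62 against 8.95, 8.86 and 8.54 (difference 1.35, SE 0.288), down from 2.78 above wild type with zero DOX. Bst2, the tetherin gene, was 1.03 above wild type (SE 0.106) and had not moved from 0.85. Irf7, an interferon-induced factor of the same family, was 0.71 above (SE 0.184). Ifit1, of the same gene family as Ifit3, stood at 9.11, 9.64 and 8.84 against 9.01, 8.82 and 8.47, a difference of 0.43 that was not called (adjusted p = 0.178).

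The related interferon lists differed among their members. All 9 interferon-induced GTPase genes were higher than wild type with zero DOX (median 0.923), and under high DOX 1 was higher and 2 were lower (median 0.023). Gbp2b, for example, went from 3.68 above wild type to a difference of -0.14, while Gbp3 overshot to -0.69 and Igtp was 0.35 higher, a call lost without high DOX replicate 2. Among 7 p200 and Ifitm genes, 2 were higher and 2 lower (median 0.212). Ifitm2 stood at 8.58, 8.44 and 8.53 against 6.77, 6.75 and 6.86 (difference 1.72, SE 0.12) and Ifitm3 was 1.67 higher. Ifitm1 was lower (-1.05, SE 0.201), at 7.42, 7.52 and 7.47 against 8.32, 8.34 and 8.90. Ifitm1 and Ifitm3, of one gene family, thus lay on opposite sides of wild type.

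Promoter sequence is shown for genes of these groups that hold the motifs IRF4 is known to bind, because restored and not restored interferon genes can be compared in it. Sequences are from RefSeq, build GRCm38.p6, written 5′ to 3′ on the strand of the gene, and each runs upstream of the annotated start. Capitals mark a match to the interferon response element core (GAAANNGAAA, on either strand) or, for Bcl6, to the ETS-IRF composite (GGAANNGAAA). One match is capitalised per sequence. Further matches stand in lower case, TTTCACTTTC in the Ifit1 stretch and GAAAATGAAA, which overlaps the capitals, in that of Bst2. The interferon genes were chosen after their values were seen.
Ifit3 (not restored; + strand, chr19:34583382-34583441): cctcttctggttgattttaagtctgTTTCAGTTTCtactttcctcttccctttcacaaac
Bst2 (not restored; - strand, chr8:71537562-71537621): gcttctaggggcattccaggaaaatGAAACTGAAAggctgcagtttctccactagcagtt
Ifit1 (restored; + strand, chr19:34640779-34640838): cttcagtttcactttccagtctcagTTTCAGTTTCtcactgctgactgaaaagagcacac
Serpinb9 (overshoot, lower; + strand, chr13:33004470-33004529): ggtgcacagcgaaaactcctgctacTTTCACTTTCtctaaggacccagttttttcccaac
Bcl6 (gained, lower; - strand, chr16:23981284-23981336): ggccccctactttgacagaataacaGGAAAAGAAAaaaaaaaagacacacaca
Ifit3 and Ifit1 hold the same 10 letters, although 1 was called above wild type and the other was not. The core was present in 1079 of 27025 promoters (3.99%), each taken from 250 bases before to 50 after the start. It was present in 10 of 19 interferon list genes with a promoter in the table, in 3 of 6 of those not restored and in 5 of 10 of those restored. The composite was present in 3.16% of all promoters and 2.86% of those of tested genes. It was present in 1 of 6 of the largest genes gained downwards, which is Bcl6. The same held for 1 of 6 of the largest upward overshoots, Cpd, and 1 of 19 interferon list genes, Stat2. The AP-1 motif TGANTCA, in 8.97% of all promoters and 6.29% of those of tested genes, was present in 3 of 6 interferon list genes not restored and 2 of 10 restored. It was present in 2 of 5 of the largest genes not restored upwards, Xaf1 and Anxa2, and in 0 or 1 gene of each other set of largest genes. A match describes letters in this window and is not a binding site.

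Cholesterol synthesis genes were the clearest list that stayed low. Of 19 tested, 15 were lower than wild type and 1 was higher (median -0.453). The corresponding counts were 17 lower and none higher with zero DOX (median -0.688) and 16 lower and 1 higher with low DOX (median -0.53), against the same wild-type arrays. By fate, 14 were not restored and 3 were restored. Mvd, mevalonate diphosphate decarboxylase, stood at 9.57, 9.59 and 9.94 in high DOX, at 10.80, 11.01 and 10.70 in wild type and at 9.64, 9.72 and 10.16 with zero DOX. It differed from wild type by -1.14 (2.2-fold lower, SE 0.125, adjusted p = 1.11e-07), against -1.0 with zero DOX. Sc5d (-0.69), Msmo1 (-0.55) and Nsdhl (-0.55), all enzymes of the late sterol steps, were lower, the last of these after -0.99 with zero DOX. The exceptions were Ebp, which was 0.51 higher, and Fdps (-0.18), Insig1 (-0.10) and Srebf2 (-0.03), the gene of the sterol-sensing factor, which were restored.

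Several regulators of the named panel and members of other lists differed upwards too. Maf, a bZIP factor of T and myeloid cells, stood at 9.10, 9.49 and 9.07 in high DOX, at 7.49, 7.53 and 7.40 in wild type and at 11.07, 11.29 and 10.92 with zero DOX, so that it went from 3.62 to 1.75 above wild type (SE 0.149). Its 3 other probe sets differed by less, 0.717, 0.366 and 0.01, the last not called. Tbx21, the gene of T-bet, stood at 10.05, 10.49 and 9.88 against 7.92, 7.88 and 8.03 (difference 2.19, SE 0.168), after 2.80 with zero DOX. Id2, an inhibitor of E proteins, was 1.00 higher (SE 0.243), after 2.11. Zbtb32, a repressor gene, counted as restored, at 0.82 above wild type without a call (SE 0.362, adjusted p = 0.0745), although its arrays lay wholly above wild type; with the replicate number as a block it was called (adjusted p = 0.0144). The chemokine receptor gene Cxcr3, which T-bet is known to act on, was 1.48 higher. Anxa2 (2.60) and Osbpl3 (2.95) moved further up with DOX. Among cell cycle regulators, cyclin D2, Ccnd2, stood at 13.24, 13.13 and 13.03 against 11.63, 11.39 and 11.46 in wild type and 12.59, 12.31 and 12.28 with zero DOX (difference 1.64, SE 0.079), and all 6 of its other probe sets were called the same way. Cdkn1a, the p21 inhibitor, was 1.77 higher (SE 0.164), against 1.41 with zero DOX. The interleukin-2 receptor alpha gene Il2ra was 1.81 higher, against 0.68.

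The remaining lists are read against 22.1% higher and 19.0% lower among all genes. Of 32 cell division genes 8 were higher and none lower (median 0.274), led by Aurka (0.67; its other probe set 0.04, not called), and Mki67 was 0.48 higher without a call. Of the 32, 25% were called, against 41.1% of all genes. The high DOX arrays lay wholly above wild type in 27 of the 32 and wholly below in none. Among all genes 55.7% were apart, a share that counts both directions together and so is not the match of the 27. Of 12 cyclin D and CDK inhibitor genes 3 were higher and none lower (median 0.094). The 25 ribosome biogenesis genes held 8 that were higher and 2 that were lower (median 0.103), led by Nolc1 (0.66, with 1 of its 2 other sets called), while Myc did not differ (-0.07). Of 16 NF-kB and CD40 pathway genes 6 were higher and 3 lower (median 0.12), with Traf1 at 0.71 and Cd40 itself overshooting to -0.45. Of 14 SOCS and cytokine receptor genes 4 were higher and 2 lower (median 0.022), with Il4ra at -0.70.

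**Figure D4:**
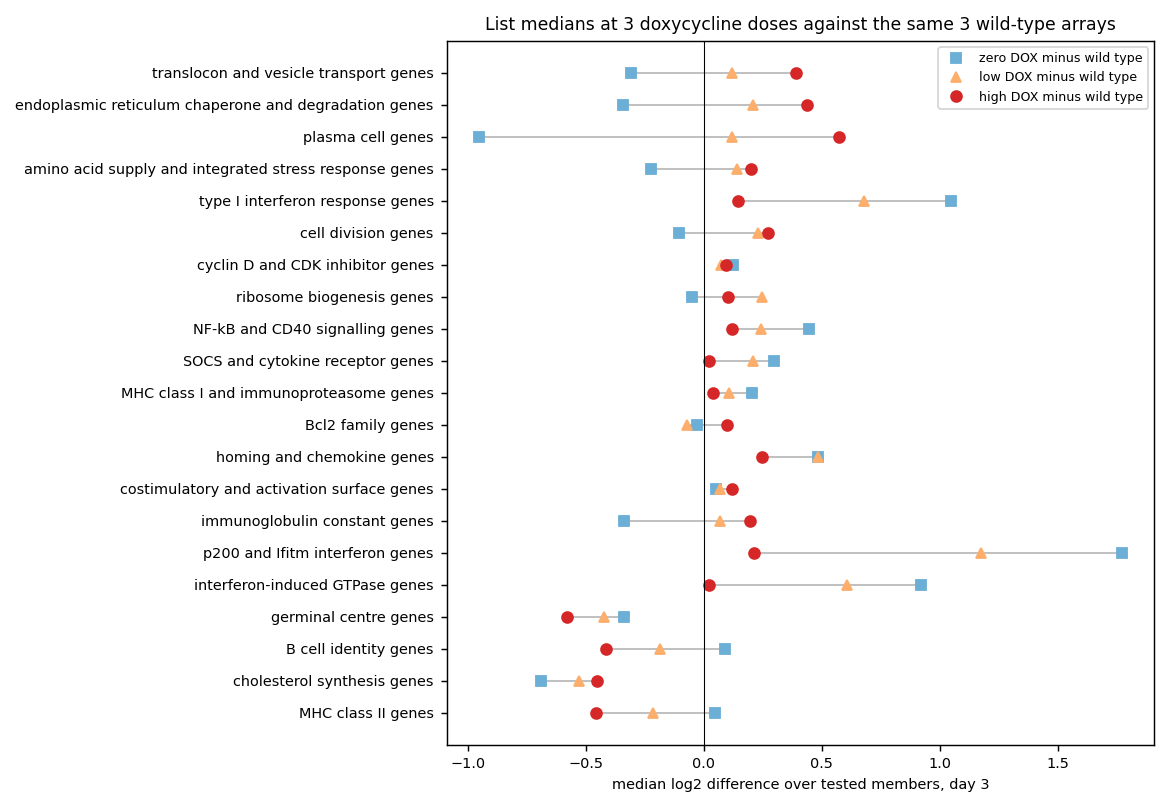
Median log2 difference from wild type over the tested members of each list, for the zero (square), low (triangle) and high (circle) DOX cultures of day 3, all set against the same 3 wild-type arrays. In the plasma cell list the median runs from -0.954 through 0.12 to 0.574, in the MHC class II list from 0.048 to -0.457, and in the cholesterol list it stays below 0 at every dose.

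Markers of other cell types were followed because the enriched B cells could hold some of them. Summed intensities of 15 myeloid markers lay between 12840 and 14650 in high DOX, between 14970 and 15310 in wild type and between 24970 and 34670 with zero DOX, and 4 of them (Ccl6, Chil3, Fcgr1 and Itgam) were below the table's median on all 6 arrays. Of the 15, 2 were higher than wild type, Alox5ap (1.12) and Itgam (0.34, a call lost with a sex term), and 1 was lower, Ctss (-0.29). Lysozyme, Lyz1, at 7.28, 8.29 and 6.52 against 7.11, 7.13 and 7.67 in wild type, was restored from 4.52 above it. NK and cytotoxic markers summed to between 3901 and 6405 against 3067 to 4185 in wild type, and 2 of 10 were higher, Tbx21 and the chemokine gene Ccl5 (1.37), both also made by activated B cells, and none was lower. T cell markers summed to 2393 to 2605 against 2138 to 2215, and 4 of 8 were higher, with Cd3g at 0.97 and Cd3d at 0.46; Cd3g was below the table's median on all 6 arrays, and Cd3e did not pass the filter. Their part in the genes above wild type, such as Maf and Tbx21, was not tested.

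Of 8 platelet and megakaryocyte markers 3 were lower in high DOX than in wild type, none was higher and 5 were not called (median -0.129). Their summed intensity was 1545 to 1652 against 2195 to 2708, and 3635 to 4608 with zero DOX. Pf4 stood at 5.97, 6.22 and 5.95 against 7.13, 7.45 and 8.67 in wild type and 10.29, 10.63 and 10.75 with zero DOX (difference -1.71, SE 0.293), and Ppbp went the same way (-2.09). The third was the integrin gene Itgb3 (-1.25), while Gp9 (0.15), Gp5 (-0.05) and Treml1 (0.02) did not differ. Neutrophil markers summed to 1970 to 2009 against 2248 to 2384, with 1 of 8 called, S100a9 (-0.90), a call lost in most fits without 1 array. Dendritic cell markers summed to 7741 to 9126 against 5241 to 5448, with 2 of 7 higher, Batf3 (1.26) and Bst2, and Flt3 lower (-0.66). Of 3 erythroid markers, the carbonic anhydrase gene Car2 alone was higher, at 10.70, 10.36 and 10.34 against 7.94, 8.02 and 7.97 (difference 2.49, SE 0.152), after 1.55 above wild type with zero DOX, while Epor (-0.08) and Slc4a1 (-0.11) did not differ.

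**Figure D5:**
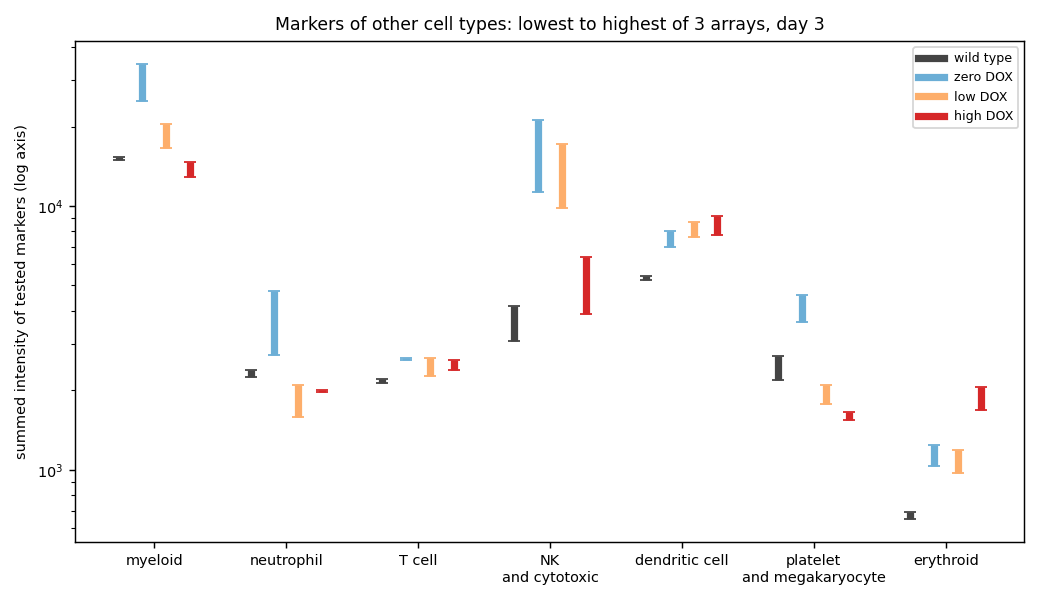
Summed intensity of the tested markers of each cell type on a log axis, drawn as a bar from the lowest to the highest of the 3 arrays of a group at day 3. Myeloid and NK markers are highest with zero DOX and return to or near wild type with high DOX, the platelet sum ends below wild type, and the erythroid sum is highest with high DOX, where it is set by Car2.

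Genes near Irf4 on its chromosome were also followed. Of 20 tested genes within 25 genes on either side, 10 were called (50%), and of 48 within 50 genes, 20 (41.7%), against 188 of 425 (44.2%) over the whole chromosome and 41.1% over all genes. Among the 48, 5 were not restored (10.4%), namely Acot13, Cdkal1, Tubb2a, Pxdc1 and Mrs2, against 45 of 425 (10.6%) on the chromosome and 11.6% of all genes.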

How the data were processed

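RNA of 30 cultures was measured on Affymetrix arrays. The deposited values are linear intensities, which the authors normalized with D-Chip (PM-only model) according to the series text. MAS5 is named in the submitters' processing notes with no role given. Of 45101 probe sets, those with 1 symbol in GEO's platform annotation were used. Symbols were updated and promoters taken from RefSeq (GRCm38.p6). Sets above the table's median (188.245) on at least 3 arrays were tested, and the set of highest mean stood for each gene, giving 12183 genes; 5472 had several. Intensities were raised by 16 and put on a log2 scale, with no further normalization. In limma 3.58.1 (R 4.3.3), the 10 groups of all 30 arrays each had a mean (20 residual degrees of freedom, median residual SD 0.0988), and p-values were adjusted by Benjamini-Hochberg. The script was tested on simulated data.

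Named genes were the 10 largest differences each way among called genes whose arrays did not overlap, the 8 largest each way among overshooting, not restored and gained genes, up to 4 called members of largest difference per list, and a regulator panel including Irf4; clones without a name and immunoglobulin variable genes were passed over. Other list members named in the text illustrate a count and were chosen after their values were seen. Members and lists were chosen with earlier results of these data known. Alternatives covered pseudocount, scaling, filter, arrays fitted, weights, sex, replicate block, probe sets and leaving out each array. The data, not the labels, show that replicate numbers pair high with zero DOX arrays (correlations 0.42 to 0.651, same sex). They do not pair high DOX with wild-type arrays. Zero DOX and wild-type arrays were not compared in this way.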

Additional observations from a re-analysis of the deposited data

Results flagged for a closer look

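For 16 of the 20 genes named for the largest differences, the difference between high DOX and wild type was called as different at day 3 and day 1 by limma's interaction term. Over all genes tested, 39.5% were so called. The 20 genes were chosen for their day 3 difference, which is part of that term, so the choice favours such calls and the values are a description. Values are the day 3 minus the day 1 difference, each from 3 arrays a group. Epcam changed most, by 4.30, from 0.90 below wild type (-0.90) at day 1 to 3.40 above it. Among the other genes that ended higher, the value was 3.21 for Klrb1f, 2.82 for Phlda1, 2.68 for Egln3, 2.67 for Rhpn2, 2.30 for Mpzl2, 2.22 for Osbpl3, 2.09 for Nckap1 and 2.00 for Fnbp1l. Xaf1 went the other way, by -1.24, from 5.15 to 3.92 above wild type. Among the genes that ended lower, Parm1 went from 0.14 to -3.18 (-3.31), Hemgn from -0.18 to -3.12 (-2.94) and Crhbp from -0.39 to -3.22 (-2.83). The value was -1.89 for Zfp521, -1.88 for Ryr2 and -1.31 for Tmem108. The labels do not say whether the same mice lie behind both days.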

How the results depend on the processing

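Counts of genes called (5008), overshooting (812), not restored (1412), restored (1521) and gained with DOX (2229) stayed within 1.5 times under another pseudocount, scaling, filter, set of arrays or a sex term. Counting every probe set gave 8588, 1369, 2464, 2807 and 3734, over 21668 sets, and 7774 for the change between days (4813); array weights gave 2360 not restored. Leaving out 1 array gave 4099 to 5098 called, 613 to 783 overshooting, 996 to 1448 not restored, 1182 to 1569 restored, 1796 to 2365 gained and 4136 to 4924 for the change between days. With the replicate number as a block, 5444 genes were called, 5003 of them shared, 953 overshot and 1698 were not restored; of the panel it added a call for Zbtb32. Same-numbered high and zero DOX arrays deviated together (correlations 0.42, 0.651 and 0.536) but high DOX and wild-type arrays did not (0.05, -0.021 and -0.064), so the numbers pair only the former. Another fit, chosen after seeing the data, had a random block joining all arrays of a genotype and replicate number, as if from 1 mouse. The labels do not say that these arrays share a mouse. In it 5138 were called. Of 157 called named genes, 14 lost the call under 1 or more of 22 alternatives. Sign changes befell 5 named genes. For 4 of these, not called against wild type, a sex term gave 0.09 for Bach2, 0.009 for Eaf2, 0.004 for Irf2 and -0.123 for Jchain; Irf2 was also 0.005 with array weights, and leaving out 1 array gave -0.035 to 0.01 for Irf2 and -0.033 to 0.125 for Jchain. For Plagl1, keeping low genes let another probe set stand for it (-0.031). The 3 arrays a group limit the precision, and genes near background are compressed by the added 16.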
